A study of Mus musculus with 12 samples.

Results

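The genes described here encode the proteins of the cytosolic ribosome in mouse liver. They were taken as every row of the gene table named Rpl or Rps with a number after it, or Rplp0, Rplp1, Rplp2 or Rpsa, leaving out the Rps6k kinases. This gave 81 genes of 21490 gene symbols, 45 of the large (60S) subunit, 30 of the small (40S) subunit, 5 paralogs (Rpl3l, Rpl7l1, Rpl22l1, Rpl36al and Rps27l) and Rps19bp1, whose product binds Rps19 and is not a ribosomal protein. Rplp0 was not analysed here.

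Nascent RNA was measured by Nascent-Seq in livers of male C57BL/6 mice of 3 to 6 months, kept in 12 hr of light and 12 hr of darkness. Livers were taken at 6 time points (every 4 hr from lights on at ZT0 to ZT20), in 2 independent series, giving 12 libraries of untreated mice and no second genotype. RNA bound to chromatin was extracted from purified nuclei and depleted of polyadenylated RNA. The paper describes the signal as predominantly, and so not wholly, that of transcripts still being made. The ZT8 and ZT20 libraries were run on 2 lanes and the other 8 libraries on 1 lane, so lane number and these time points cannot be told apart. Each value is a signal in reads per base pair (rpbp), the coverage by uniquely mapped reads over all exons of a gene divided by exon length, and brought by the authors to a common library size. It is a level per exon length, and a gene with near-identical copies elsewhere loses reads, so levels are compared between genes with that limit.

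Each ribosome carries 1 copy of nearly every ribosomal protein (the stalk proteins are an exception), and their messengers are among the most abundant and long lived of a liver cell. The messengers start with a run of pyrimidines that ties their translation to nutrient signals. Many of the genes carry small nucleolar RNAs (snoRNAs) in their introns, which are cut out of the nascent transcript and guide the chemical modification of ribosomal RNA. Box C/D snoRNAs guide methylation and box H/ACA snoRNAs guide pseudouridylation. The mammalian genome also holds many processed pseudogenes of these genes, copies of the spliced messenger that lack introns, so a read from a spliced exon may match several places.

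GENCODE M1 places 54 snoRNAs inside 29 of the 81 genes, on the same strand. Of these, 19 snoRNAs in 14 genes overlap an annotated exon of the host, counting every isoform. The following sequences are shown because their rows or their host carried the highest signals of the set. All are from mm9, 5′ to 3′ on the strand of the host, and their ends follow GENCODE M1. In the box C/D snoRNAs the capitals mark the first TGATGA (C box) and the last CTGA (D box), and in the box H/ACA snoRNAs the ACA that ends 3 bases before the 3′ end.
Snord15a (Rps3, chr7:106631295-106631442, minus strand, in an intron): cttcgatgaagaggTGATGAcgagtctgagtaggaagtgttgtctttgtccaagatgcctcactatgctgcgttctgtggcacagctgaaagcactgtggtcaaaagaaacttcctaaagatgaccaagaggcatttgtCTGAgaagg
Snord15b (Rps3, chr7:106628073-106628217, minus strand, inside an annotated exon): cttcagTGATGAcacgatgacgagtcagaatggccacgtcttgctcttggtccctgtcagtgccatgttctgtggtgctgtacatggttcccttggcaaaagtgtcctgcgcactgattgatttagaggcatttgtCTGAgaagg
Snora64 (Rps2, chr17:24857717-24857850, plus strand, inside an annotated exon): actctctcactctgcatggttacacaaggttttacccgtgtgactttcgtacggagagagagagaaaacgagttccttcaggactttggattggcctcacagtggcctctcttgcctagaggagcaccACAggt
Snora70 (Rpl10, chrX:71517823-71517959, plus strand, inside an annotated exon): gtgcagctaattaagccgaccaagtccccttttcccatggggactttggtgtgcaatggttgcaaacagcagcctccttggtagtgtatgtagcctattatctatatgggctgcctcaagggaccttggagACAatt

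Snord15a and Snord15b were identical in 98 of 152 columns of a global alignment (64.5%). Their longest shared run was 21 bases at the 3′ end (agaggcatttgtctgagaagg), which holds the D box. Over all 54 snoRNAs, 18 held TGATGA in the first 30 bases together with CTGA in the last 20, and 20 ended in ACA and 3 further bases. These are matches of letters on the host strand only.

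Most ribosomal protein genes had a low nascent signal. The median over the 81 genes of the mean signal was 2.53 rpbp, with quartiles of 1.73 and 3.48 rpbp, beside a median of 1.77 rpbp over all 21490 symbols and 2.39 rpbp over the 75 genes of the mitochondrial ribosome. The mean was under 1 rpbp in 5 genes, between 1 and 6 rpbp in 69 and 6 rpbp or more in 7. The median was 2.59 rpbp over 45 large subunit genes and 2.49 rpbp over 30 small subunit genes, whereas the mean over the small subunit genes was 24.4 rpbp, with Rps3 among them, and that over the large subunit genes 2.91 rpbp. Only Rpl36al had a library at 0. The 12 libraries were those of hepatocytes by their markers, with a summed signal of Alb, Apoa1, Ttr, Tat, Cps1 and Pck1 of 675.5 to 2426 rpbp per library. The summed markers of Kupffer cells (5 genes) came to 17.5 to 54.5 rpbp, of endothelial cells (5 genes) to 10.5 to 25.2 rpbp, of stellate cells (5 genes) to 7.9 to 13.5 rpbp, of leukocytes (4 genes) to 2.7 to 9.5 rpbp, of erythroid cells (2 genes with a row) to 8.5 to 14.6 rpbp and of cholangiocytes (3 genes with a row) to 0.8 to 2.2 rpbp. Of these markers Hbb-b1 (erythroid), Cd79a and Cd3e (leukocyte), Krt19 and Krt7 (cholangiocyte) and Des (stellate) had a mean under 0.5 rpbp. The sums of these lists thus rest on their other genes. In whole liver, fewer cells of a type and less RNA per cell cannot be told apart.

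**Figure D1:**
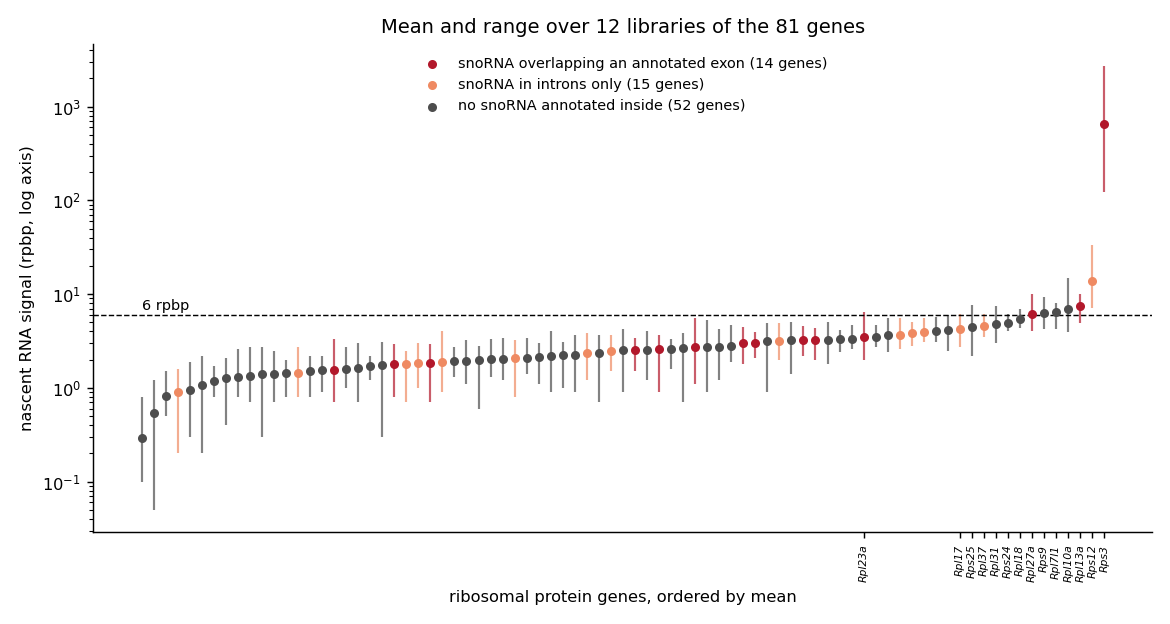
Nascent RNA signal of the 81 ribosomal protein genes (horizontal axis, ordered by mean, the 14 tested genes labelled) in rpbp on a log axis, with points for the mean and lines for the range over the 12 libraries, coloured by the snoRNAs annotated inside each gene. A library at 0 is drawn at 0.05, and the dashed line marks 6 rpbp. Rps3, with a mean of 646 rpbp, and Rps12, with 13.6 rpbp, stand above a band that holds nearly all other genes between 1 and 7 rpbp.

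Genes were tested where at least 1 library exceeded the study's signal threshold. At 6 rpbp this held for 14 of the 81 ribosomal protein genes and for 6284 of all symbols. They were, from the highest mean to the lowest, Rps3, Rps12, Rpl13a, Rpl10a, Rpl7l1, Rps9, Rpl27a, Rpl18, Rps24, Rpl31, Rpl37, Rps25, Rpl17 and Rpl23a. The threshold was passed in all 12 libraries by Rps3 and Rps12, and in 1 library only by 6 of the 14 genes (Rps24, Rpl31, Rpl37, Rps25, Rpl17 and Rpl23a). The 14 genes thus do not stand for the other 67. Just inside the threshold were Rpl17, Rpl37 and Rps24, each with a highest value of 6.2 rpbp, Rpl23a with 6.4 rpbp and Rpl18 with 6.9 rpbp. Among those just outside were Rpl8 (6.0 rpbp), Rps15a (5.7), Rpl4 (5.6), Rpl12 and Rpl35a (both 5.5), Rps29 (5.3), and Rpl11, Rpl23 and Rps27 (each 5.0). Replicate 1 of ZT16 was the highest library for 5 of the 10 genes within 1 rpbp outside and for 1 of the 5 inside.

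Rps3, a protein of the small subunit at the entry of the mRNA channel, had the highest signal of the set in every library. It lies at chr7:106626407-106632219 on the minus strand. Its signal was 738 and 522 rpbp at ZT0, 354 and 663 at ZT4, 949 and 124 at ZT8, 282 and 447 at ZT12, 374 and 421 at ZT16, and 2697 and 183 at ZT20 (replicates 1 and 2). Replicate 1 of ZT20 was 14.8 times replicate 2, and replicate 1 of ZT8 was 7.66 times replicate 2, so the replicates of these time points spanned the whole range of the other libraries. Rps3 alone made up 37.0% to 91.3% of the summed signal of the 81 genes in a library. Without replicate 1 of ZT20 its mean fell from 646 to 460 rpbp.

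The snoRNA rows inside these genes carried far higher signals than most hosts. In all 9 such rows lay inside 8 genes, with means from 3.48 rpbp to 3592 rpbp (Snord15a in Rps3). Those named here and their hosts were chosen after their values were seen. Snord15a ranged from 1347 to 8793 rpbp with a median of 3015, and was highest in replicate 1 of ZT20. The signal of Rps3 was 0.0919 to 0.307 times that of Snord15a in the same library (median 0.139), and the pair followed each other over the 12 libraries (Pearson's r = 0.97 on log2 values, a description of libraries that share depth and preparation). Snora70 had a mean of 1832 rpbp and Snora64 of 997 rpbp. These snoRNAs lie in Rpl10 and Rps2, whose exon signals were 2.98 and 1.84 rpbp. For the 8 snoRNA rows other than Snord15a, r with the host ran from -0.40 to 0.42.

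Most of these rows peaked in the same library. Of the 9 snoRNA rows, 7 were highest in replicate 1 of ZT20. Their values there were 1.06 to 39.9 times those in replicate 2 of ZT20. Snord33 was nearly equal in both (21.7 and 20.5 rpbp), while Snora62 (in Rpsa) was 21.4 times, Snora70 15.0 times, Snora69 (in Rpl39) 13.3 times, Snora64 6.25 times and Snord15a 5.07 times its value in replicate 2 of the same time point. The whole table held 12 rows that RefSeq names Snora or Snord, and these 9 were among them. Of the 11 above the threshold, 8 were highest in that library (72.7%), beside 5.47% of the 6273 other symbols above the threshold. The 8 include the 7 already counted, so they add little to them. Of the 81 ribosomal protein genes, 6 were highest in it, Rps3 and Rps12 among them. The part of the snoRNAs in the signal of Rps3 was not tested, since reads cannot be assigned within the gene from the table. Whether the reads of the snoRNA rows came from nascent RNA or from snoRNAs already cut out was not tested either.

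**Figure D2:**
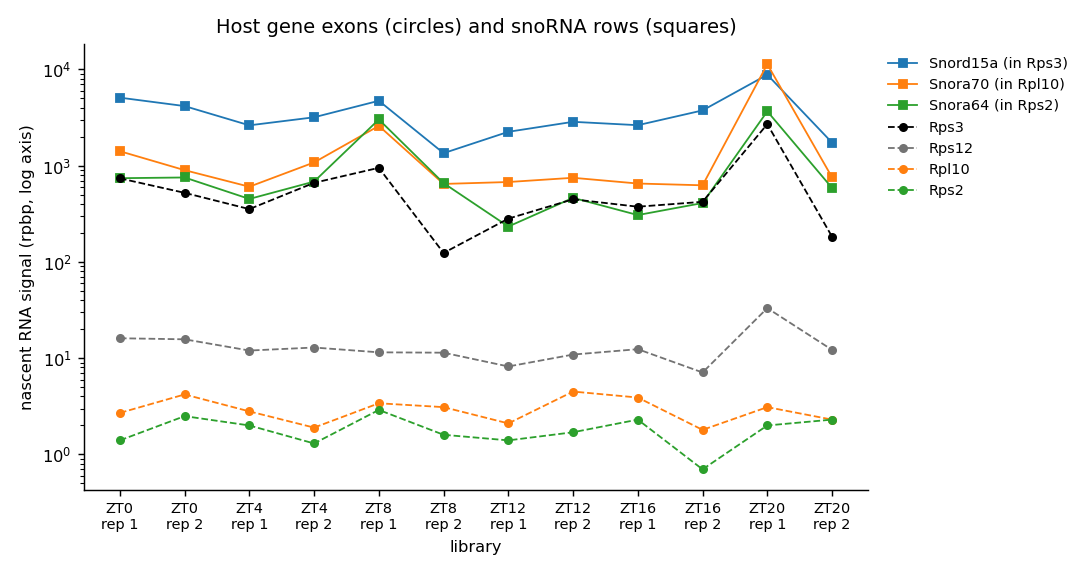
Signal in rpbp on a log axis in each of the 12 libraries for 3 snoRNA rows (squares, solid lines), their host genes and Rps12 (circles, dashed lines). Rps3 runs in parallel with Snord15a and peaks with the snoRNA rows in replicate 1 of ZT20, where it reached 2697 rpbp, while Rpl10 and Rps2 stay below 6 rpbp in every library.

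Rps12, another protein of the small subunit, was the second highest gene. It lies at chr10:23504990-23507006 on the minus strand, and GENCODE M1 places 3 snoRNAs in its introns, Snora33 among them. Its signal was 16.1 and 15.7 rpbp at ZT0, 12.0 and 12.9 at ZT4, 11.5 and 11.4 at ZT8, 8.2 and 10.9 at ZT12, 12.4 and 7.1 at ZT16, and 33.1 and 12.2 at ZT20. The ZT0 replicates were above all other libraries but 1, and replicate 1 of ZT20 stood 2.71 times above its partner. Its F24 was 0.317 (permutation p = 0.0837), the lowest permutation p of the 14 tested genes. When replicate 1 of ZT20 was left out it met the criteria of a rhythm, with F24 = 0.638 and a permutation p of 0.0110 (adjusted p = 0.220).

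Rpl10a, a large subunit protein of the L1 stalk, was the most variable of the 14 tested genes after Rps3 (SD/mean 0.504). Its signal was 5.6 and 6.7 rpbp at ZT0, 5.5 and 4.3 at ZT4, 4.8 and 4.2 at ZT8, 8.4 and 14.9 at ZT12, 12.4 and 3.9 at ZT16, and 4.5 and 8.2 at ZT20. Both ZT12 replicates were above both replicates of ZT0, ZT4 and ZT8, and the ZT16 pair spanned nearly the full range. The difference between ZT12 and ZT0 was 0.78 on the log2(rpbp + 1) scale (SE 0.44, adjusted p = 0.393, limma), which did not exceed the replicate spread.

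Rpl13a, a large subunit protein, was highest in replicate 2 of ZT12 (9.9 rpbp) and lowest in replicate 2 of ZT16 (4.9 rpbp), and the other 10 libraries ran between these. It hosts Snord33, Snord34 and Snord32a in annotated exons and Snord35a in an intron, and the rows of Snord33 and Snord35a had means of 11.9 and 4.61 rpbp. Rpl7l1, a paralog of Rpl7, had a mean of 6.43 rpbp and the second smallest SD/mean of the 14 genes (0.165). It ran from 4.2 rpbp in replicate 2 of ZT8 to 8.1 rpbp in replicate 2 of ZT12. Rps24, a small subunit protein whose human gene is mutated in Diamond-Blackfan anaemia, varied least (SD/mean 0.128). It ran from 4.0 to 6.2 rpbp, with an F24 of 0.000388.

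**Figure D3:**
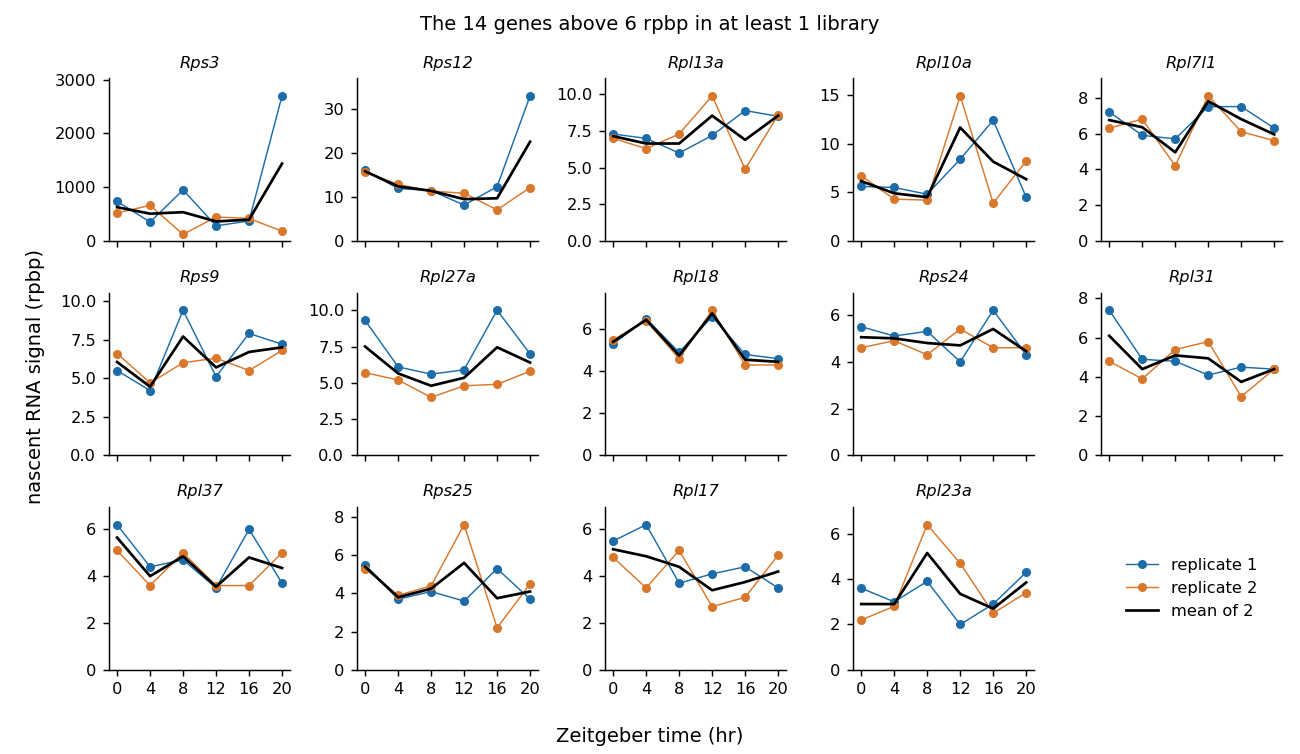
Signal in rpbp (vertical axes from 0, a scale for each gene) against Zeitgeber time in hr for the 14 tested genes, with replicate 1 in blue, replicate 2 in orange and their mean in black. The replicate lines cross or part in most panels, as for Rpl10a (8.4 and 14.9 rpbp at ZT12, 12.4 and 3.9 rpbp at ZT16), and lie close together in the panel of Rpl18.

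No ribosomal protein gene passed the test for a difference between time points. In limma's moderated F-test on log2(rpbp + 1), 0 of the 14 tested genes passed an adjusted p of 0.05, where 481 of the 6284 tested symbols did (7.65%). At an unadjusted p under 0.05 there was 1 of 14 genes, beside 27.6% of all tested symbols. The median F over the 14 genes was 1.24, beside 2.00 over all tested symbols. With no threshold on the signal all 81 genes were tested and 0 were called, beside 133 of 20756 symbols (0.641%). Then 7 of the 81 genes had an unadjusted p under 0.05, beside 18.7% of all symbols.

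A 24-hr rhythm was called where the share of variance in the 24-hr component (F24) was over 0.45, the permutation p under 0.05 and the highest value over 1.5 times the lowest. None of the 14 genes was called, beside 15.2% of the 6284 tested symbols, and 0 of the 14 had an unadjusted permutation p under 0.05 (16.4% of all tested symbols). After adjustment 0 of 14 passed, beside 0.668% of all tested symbols. F24 ran from 0.000388 to 0.340 with a median of 0.136, beside a median of 0.222 over all tested symbols. With no threshold, 4 of the 81 genes met the criteria, beside 10.7% of 20756 symbols, and 0 of them passed after adjustment, as for all symbols. These 4 were named after their values were seen. Rpl28, of the large subunit, was at 2.5 and 2.7 rpbp at ZT0 and at 1.3 and 2.0 at ZT8. Rps3a, of the small subunit, was at 3.2 and 3.0 rpbp at ZT0 and at 1.5 and 0.8 at ZT16. Rplp2, of the ribosomal stalk, was at 2.7 and 2.1 rpbp at ZT20 and at 1.3 and 0.9 at ZT4. Its replicates lay apart at ZT0 (2.9 and 1.6 rpbp) and at ZT12 (0.8 and 2.1 rpbp). Rpl41, the smallest ribosomal protein, was at 0.6 and 0.4 rpbp at ZT4 and at 2.0 and 2.1 at ZT12. At a threshold of 3 rpbp Rps3a was the 1 gene of 55 that met the criteria, beside 13.6% of 10382 symbols, and it passed that threshold through replicate 1 of ZT0 alone. The phases of the 4 genes were 23.4, 0.835, 19.5 and 11.9 hr, spread over the day.

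Rpl18, a large subunit protein, came nearest to a call. It gave 5.3 and 5.5 rpbp at ZT0, 6.5 and 6.4 at ZT4, 4.9 and 4.6 at ZT8, 6.6 and 6.9 at ZT12, 4.8 and 4.3 at ZT16, and 4.6 and 4.3 at ZT20. The ZT4 and ZT12 libraries were above all others and did not overlap them, and the replicates differed by at most 0.5 rpbp. Rpl18 passed the threshold of 6 rpbp through the ZT4 and ZT12 libraries alone, so the threshold favoured high values there. The F-test gave an unadjusted p of 0.0418 and an adjusted p of 0.166 (limma), with an F24 of 0.256 and maxima at ZT4 and ZT12. Rpl18 (chr7:52971518-52976205, plus strand) overlaps Sphk2, a sphingosine kinase gene on the minus strand, by 1768 bases. Sphk2 had a mean of 17.6 rpbp, ran from 10.1 to 30.3 rpbp and was called rhythmic (F24 = 0.719, permutation p = 0.00355, adjusted p of the F-test 0.0738). The paper proposes that this rhythm likely comes from the neighbouring gene Dbp, whose nascent RNA runs on into Sphk2. Dbp was called rhythmic here (F24 = 0.733, permutation p = 0.00022). The values do not separate strands, so in the overlap reads of Rpl18, of Sphk2 and any from Dbp cannot be told apart. On log2 values r between Rpl18 and Sphk2 was 0.62 over the 12 libraries, while Sphk2 was highest in replicate 1 of ZT8, where Rpl18 was low.

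Time points 12 hr apart were compared within the same fit, ZT12 with ZT0, ZT16 with ZT4 and ZT20 with ZT8. None of the 14 genes passed an adjusted p of 0.05 in any of them, beside 4.44%, 2.1% and 1.58% of the 6284 symbols. At an unadjusted p under 0.05 there were 1, 1 and 0 of the 14 genes, beside 18.4%, 19.4% and 12.6% of symbols. The median log2 difference over the 14 genes was -0.08 for ZT12 minus ZT0 (all tested symbols 0.03), -0.04 for ZT16 minus ZT4 (all -0.20) and -0.05 for ZT20 minus ZT8 (all 0.00). Of the 14 genes 5 were higher at ZT12, 7 at ZT16 and 6 at ZT20, beside 52.9%, 29.6% and 50.6% of all tested symbols. With no threshold the medians over the 81 genes were -0.17, 0.00 and -0.02, beside 0, -0.07 and -0.01 over 20756 symbols. Then 30 of the 81 genes were higher at ZT12, 41 at ZT16 and 39 at ZT20, beside 48.6%, 34.2% and 40.7% of symbols. A shift of the 81 genes as a set was not tested. The intervals were wide. Rpl37, a large subunit protein, had a difference of -0.54 between ZT12 and ZT0 (95% interval -1.07 to -0.02, adjusted p = 0.255, limma), from 3.5 and 3.6 rpbp at ZT12 against 6.2 and 5.1 at ZT0. It passed the threshold through replicate 1 of ZT0 alone, so the threshold favoured this direction. Rpl18 had a difference of -0.43 between ZT16 and ZT4 (-0.80 to -0.06, adjusted p = 0.204, limma). After rescaling by the median ratio it was -0.23 (adjusted p = 0.475, limma). Rpl18 passed the threshold through libraries of ZT4 and ZT12 alone, so the threshold favoured this direction too. For Rps3 the interval of ZT20 minus ZT8 ran from -1.46 to 3.52.

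Rps27a, which encodes ubiquitin fused to a small subunit protein, was the gene with the clearest low point below the threshold, and was named after its values were seen. It was at 1.1 and 0.7 rpbp at ZT12 and between 1.7 and 3.8 rpbp in the other 10 libraries, with 2.5 and 3.4 rpbp at ZT0. Its lowest library held only 3.45 reads by the estimate described below. At a threshold of 3 rpbp, at which 55 of the genes were tested, it was lower at ZT12 than at ZT0 by a log2 difference of -1.05 (SE 0.244, adjusted p = 0.0476, limma), the 1 gene called of 55 beside 2.97% of 10382 symbols. Rps27a passed that threshold only through libraries of other time points, ZT0 among them, so the threshold favoured a low ZT12. With no threshold the call was lost, as 0 of 81 genes passed, beside 0.915% of 20756 symbols. Of the 81 genes 13 then had an unadjusted p under 0.05 in this contrast, beside 13.1% of all symbols. Of the 81 genes 11 were lower at ZT12 at that p, beside 5.92% of all symbols, and of the symbols at that p 45.3% were lower.

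No common time course was seen over the 14 tested genes. In each library the deviation of each of the 14 genes from its own mean was taken on the log2 scale. The median deviation was 0.22 and 0.05 at ZT0, -0.06 and -0.18 at ZT4, -0.08 and -0.08 at ZT8, -0.19 and 0.19 at ZT12, 0.22 and -0.28 at ZT16, and -0.04 and -0.01 at ZT20. The highest and the lowest library were the replicates of the same time point, ZT16, with 9 and 0 of the 14 genes above their own mean. Their gap was 0.51. In the lowest library, replicate 2 of ZT16, all tested symbols were also low, with a median of -0.20 and 25.4% of symbols above their mean, whereas in replicate 1 of ZT16 they were at -0.09. The shift of the whole library and that of the ribosomal protein genes were not separated here, apart from the rescaled values given under the processing alternatives.

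Over all 81 genes without Rps3 and Rps12, the mean signal was 2.94 ± 0.196 rpbp at ZT0, 2.64 ± 0.218 at ZT4, 2.72 ± 0.282 at ZT8, 2.66 ± 0.457 at ZT12, 2.70 ± 0.899 at ZT16 and 2.75 ± 0.10 at ZT20 (SD, n = 2 libraries). The 6 means lay within 0.3 rpbp of each other, less than the SD at ZT12 and at ZT16 but not less than that at the other time points. The libraries ran from 2.06 rpbp to 3.33 rpbp, again the replicates of ZT16. By the mean of the 2 replicates 26 of the 81 genes were highest at ZT0, 14 at ZT12, 13 at ZT8, 10 each at ZT16 and ZT20, and 8 at ZT4. Of all tested symbols 11.6% were highest at ZT0, 27.5% at ZT12 and 24.0% at ZT8. These shares cover symbols above 6 rpbp only, so they are not a like background for the 81 genes, most of which were below it. Shares over all symbols without a threshold are not given here. Of the 14 genes tested at the same threshold, 5 were highest at ZT12, 4 at ZT0, 2 each at ZT8 and ZT20, 1 at ZT16 and 0 at ZT4. The ZT0 libraries, at 3.08 and 2.80 rpbp, were within the range of the other 10.

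**Figure D4:**
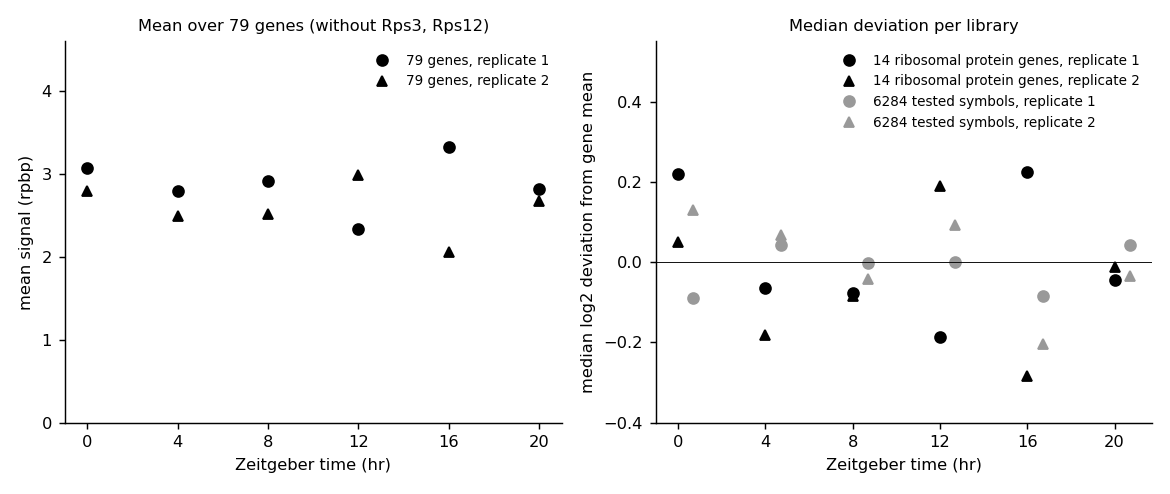
Left, mean signal in rpbp of 79 ribosomal protein genes (all but Rps3 and Rps12) against Zeitgeber time in hr. Right, median log2 deviation from each gene's mean for the 14 tested ribosomal protein genes (black) and for all tested symbols (grey, set slightly to the right). Circles are replicate 1 and triangles replicate 2. The replicates of ZT16 (3.33 and 2.06 rpbp, deviations of 0.22 and -0.28) lie farther apart than the means of any 2 time points.

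Pairs of the 14 genes had a median Pearson's r of 0.24 over the 12 libraries (91 pairs, quartiles -0.01 and 0.37), beside 0.08 over pairs of all tested symbols (quartiles -0.21 and 0.37). All pairs share the same libraries and their depth. Without replicate 2 of ZT16 the median r of the 14 genes was 0.13. The time profile of a gene in series 1 was then set against that in series 2 over the 6 time points. The median r was 0.03 over the 14 genes, and 7 of 14 were above 0. Over all 6284 tested symbols the median was 0.48 and 82.3% were above 0. Over all 81 genes the median was -0.03 and 36 were above 0, beside a median of 0.32 and 64.9% of 20756 symbols. Of the 14 genes Rpl18 had the highest r between the series, 0.98. Replicates of a time point differed by a median of 0.25 on the log2 scale in the 14 genes and in all tested symbols alike, whereas the SD of the 6 time point means had a median of 0.21 in the 14 genes and 0.26 in all tested symbols.

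Depth limits what these genes can show. The table gives no read counts, so reads were estimated from the signal, the exon length in GENCODE M1, the read length and the published library totals. This could be done for 80 of the 81 genes. In some of them, such as Rps20 (3706 bases) and Rpl24 (5676 bases), this exon length exceeded the whole locus in the table, so their reads are overestimated. A gene below the threshold had a median of 13.2 estimated reads per library, and the 14 tested genes had 45.8, beside 209 for all tested symbols with a length. The variance over the 12 libraries was a median of 1.57 times that of counting error over the 80 genes, and under 2 times in 59 of them (73.8%). Over the 4306 tested symbols with a length the median was 12.6 times, and 3.69% were under 2 times. Rps3, Rps12 and Rpl10a stood out with 9994, 12.0 and 10.5 times, while Rps24 had 0.515 times. The estimate covers counting error only, with PCR copies counted as separate reads, and a time difference of the size of this error was not detectable in most of the genes.

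The spliced messengers of most of these genes have near-identical copies in the genome. For the protein-coding transcript with the longest coding part, a median of 79.1% of 80-base windows had a copy outside the gene with at most 2 mismatches, and over 50% of windows did in 61 of 80 genes. The exons with their genomic flanks, as in an unspliced transcript, had copies for a median of 14.4% of windows. A median of 8 other places per gene matched at least 50% of the transcript at 90% identity or more. Rpl7a had 89 such places, Rpl21 80, Rpl17 55, Rps2 54 and Rpl29 52, and 17 genes had none. These 5, Rpl24 and Rpl13a were named after their values were seen. A count of 0 depends on the length of the transcript used and does not mean that copies are absent. Rpl24 and Rpl13a had a count of 0, with copies for 74.7% and 54.0% of their spliced windows. Rpl29, at 0.825 rpbp, was among the lowest genes, whereas Rpl17 was above the threshold in 1 library.

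The signal was lower where copies were more frequent, with much overlap. The 40 genes whose unspliced copy share was at or above the median had a median signal of 2.00 rpbp, and the 40 below it 3.23 rpbp. For the spliced share these were 2.05 and 2.90 rpbp. Spearman's rho of the mean signal over the 80 genes was -0.36 with the unspliced share, -0.22 with the spliced share and -0.11 with the number of copies (across genes, which are not independent replicates). Rps3 had 7.22% of spliced and 2.19% of unspliced windows with a copy, and Rps12 98.4% and 11.0%. Rps12 was thus the second highest gene although nearly all of its spliced sequence has copies. The 14 genes with a snoRNA over an annotated exon had a median of 3.00 rpbp, the 15 with snoRNAs in introns only 2.44 rpbp, and the 52 with none 2.20 rpbp. Rps2, with Snora64 in an annotated exon, had 1.84 rpbp beside 997 rpbp for the snoRNA row, and whether the exons of GENCODE M1 are those counted in the table was not tested.

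**Figure D5:**
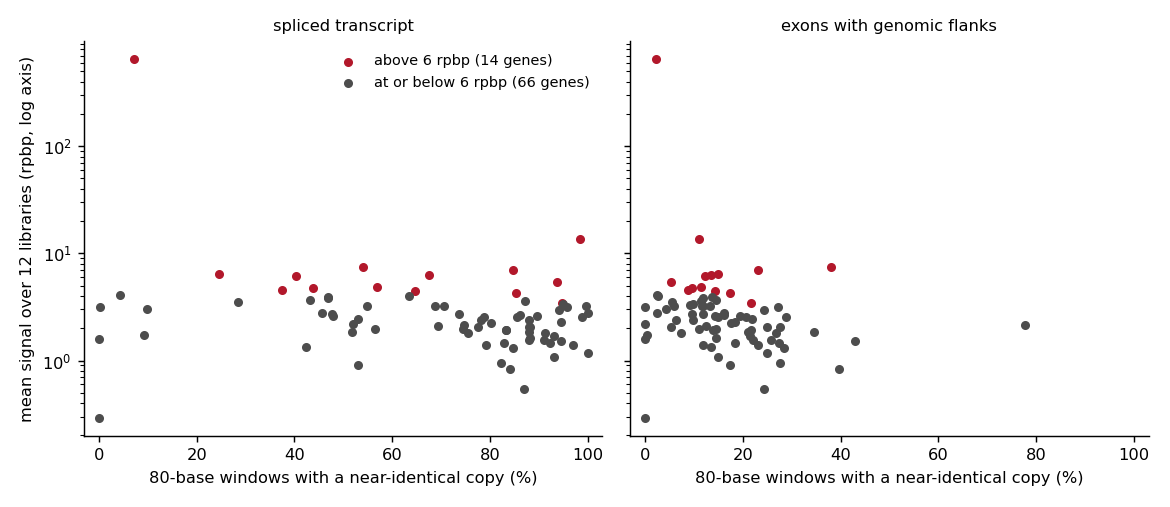
Mean signal in rpbp on a log axis against the percentage of 80-base windows with a near-identical copy elsewhere in the genome, for the spliced transcript (left) and the exons with genomic flanks (right) of 80 ribosomal protein genes. Red marks the 14 genes above 6 rpbp. Medians were 79.1% on the left and 14.4% on the right, and Rps3 lies at the top left of both panels.

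The paralogs other than Rpl7l1 were low. Rpl3l, a muscle counterpart of Rpl3, had a mean of 0.292 rpbp and no copied window, the lowest signal of the set. Rpl36al had 0.542 rpbp, Rpl22l1 0.942 rpbp and Rps27l, a p53 target, 1.73 rpbp. Rps27l was at 0.3 and 0.9 rpbp at ZT12 and at 1.0 rpbp or more in every other library. Rps19bp1 had 1.58 rpbp and ran from 1.0 to 2.7 rpbp. Rpl31, next to the clock gene Npas2 on chromosome 1, had a mean of 4.78 rpbp and gave 7.4 and 4.8 rpbp at ZT0 and 4.8 and 5.4 at ZT8. Npas2 fell from 10.4 and 6.9 rpbp at ZT0 to 0.0 and 0.1 at ZT8 and was called rhythmic (F24 = 0.772, permutation p = 0.00024, adjusted p of the F-test 0.00286). Rpl31 had an F24 of 0.134 (permutation p = 0.559). Tbc1d8 overlaps the other end of Rpl31 by 408 bases on the minus strand (mean 7.19 rpbp, r = -0.11), and a row named M75 covers 3448 bases of its locus (mean 5.61 rpbp, r = 0.49). Rps25 overlaps Ccdc84 by 243 bases on opposite strands (mean 8.88 rpbp), and here r was 0.81 over the 12 libraries. These 3 rows, Sphk2 and Dbp were named after their values were seen.

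Ribosomal proteins that do not carry an Rpl or Rps name were set beside them. Fau, a ubiquitin-like protein fused to a small subunit protein, had a mean of 1.73 rpbp (0.9 to 2.4). Gnb2l1, which encodes the scaffold protein RACK1 of the small subunit, was higher with 11.0 rpbp (8.2 to 13.3) and an F24 of 0.0231 (permutation p = 0.898). Of 18 translation factors 6 were tested and none was called by either test. Of 23 ribosome biogenesis genes with a row 3 were tested, none passed the F-test and Tsr1, a maturation factor of the small subunit, was called rhythmic (F24 = 0.623, permutation p = 0.0119, 11.7 rpbp at ZT20 against 8.55 at ZT8). Of the 75 genes of the mitochondrial ribosome 14 were tested, none passed the F-test and Mrpl12 and Mrpl37 were called rhythmic. These are 2 of 14 genes, beside 15.2% of all tested symbols. After adjustment of the permutation p neither these nor Tsr1 passed (0.154 for Mrpl12, 0.207 for Mrpl37 and 0.173 for Tsr1). Mrpl12 went from 10.8 rpbp at ZT0 to 5.95 at ZT16 (F24 = 0.603, permutation p = 0.00874), and Mrpl37 from 6.30 rpbp at ZT4 to 3.55 at ZT16 (F24 = 0.561, permutation p = 0.0197).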

How the data were processed

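The authors aligned the 80-base reads to mm9 with TopHat (CASAVA 1.7 is also named in the submitters' processing notes), kept uniquely mapped reads, and deposited for each gene symbol a signal, the coverage of its exons per base pair, without regard to strand and scaled to a common number of uniquely mapped reads. They also deposited a fraction of variance in the 24-hr component, its phase and an unadjusted p-value per gene. These columns were not used. The table held 21490 symbols and 27919 blank lines, which were dropped. A signal is not a count, so no count model was fitted.

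Symbols with a library over 6 rpbp were tested on log2(rpbp + 1) with limma 3.58.1 in R 4.3.3 (moderated F-test over 6 time points and 3 contrasts, Benjamini-Hochberg over all tested symbols). F24 was tested on linear values with 100000 permutations, one-sided, and 10000 in alternatives. Both were tested on simulated data. Having 2 replicates per time point limits the precision, and no source says whether a library is 1 animal, so p-values measure the spread between these libraries. Copies were found with BLAST 2.17.0, and snoRNAs, strands and exons came from GENCODE M1 (same build, 80 of 81 genes matched). The table lists the 9 snoRNA rows by RefSeq transcript identifiers, which were turned into symbols with the RefSeq gene table.

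The genes, lists and tests were chosen with earlier results of these data known. Named were genes called, the 5 highest and 5 lowest tested, the 3 most and 3 least variable, paralogs, genes within 1 rpbp of the threshold, and from other lists those called. Some genes under this rule are not reported here. Others carry a remark or stand in a list of all tested genes. Alternatives were thresholds of 3 and 12 rpbp or none, a pseudocount of 0.1, rescaling, removal of the GC trend, a replicate block, an intensity trend, F24 on log2 values, an adjusted permutation p, and each library left out.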

Additional observations from a re-analysis of the deposited data

How the results depend on the processing

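The F-test called 0 ribosomal protein genes under all 20 alternatives, with a lowest adjusted p of 0.0613 over all of the genes tested in each (limma). The contrasts ZT16 against ZT4 and ZT20 against ZT8 also called 0 under all of theirs, and ZT12 against ZT0 called 1 gene (Rps27a) at a threshold of 3 rpbp. The rhythm call gave 1 gene of 55 at 3 rpbp (Rps3a, beside 13.6% of symbols) and 4 of 81 with no threshold (beside 10.7%). Leaving out 1 library gave 0 to 2 rhythmic genes: Rpl10a and Rpl13a without replicate 2 of ZT16 (13.7% of symbols), Rps12 without replicate 1 of ZT20 (14.2%) and Rpl17 without replicate 2 of ZT4 (14.2%). The F-test and contrasts gave 0 to 0.

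The gap of 0.51 between the highest and the lowest median deviation was 1.91 at 12 rpbp, where 3 genes were tested, and 0.41 to 0.63 with 1 library left out. After rescaling by the median ratio it was 0.55, with replicate 1 of ZT0 highest and replicate 2 of ZT4 lowest. The median pairwise r of 0.24 was -0.16 at 12 rpbp and 0.13 to 0.27 with 1 library left out. The median SD/mean of 0.237 was 0.281 at 3 rpbp, 0.504 at 12 rpbp, 0.299 with no threshold, 0.247 after rescaling, 0.249 with the GC trend removed, 0.233 to 0.254 with 1 library left out, and 0.230 without Rps3 and Rps12, an alternative chosen after seeing the data. The median level of 2.53 rpbp was 5.79 rpbp over the 14 tested genes and 2.42 to 2.55 rpbp with 1 library left out. The cause of these shifts was not tested.

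Labels number the replicates of each time point 1 and 2. Over tested symbols the replicate differences of 5 of 15 pairs of time points correlated above 0.1 (r from -0.12 to 0.32), so the numbers were not taken to pair the samples, although the mean r with the other 5 time points was above 0 for all 6. With a replicate block the F-test called 0 ribosomal protein genes and 455 of all symbols, in place of 481, and the rhythm call 0 and 969, in place of 956. With about 13 estimated reads per library in most of the genes, small differences were beyond the depth.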
